A study of Mus musculus with 12 samples.

Results

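Wide regions of histone H3 lysine 9 dimethylation (H3K9me2) are the called regions of at least 1000 bp. They were taken from a pair of deposited comparison tables by the distance from start to end, on the 19 autosomes only, with 1 row kept per position. They numbered 173 of 33490 autosomal regions (0.517%) in the FAD versus WT table and 249 of 43268 (0.575%) in the FAD-BIX versus FAD table, or 325 of 54769 distinct positions over both. Of the 173, 135 had a counterpart in the other table at 50% reciprocal overlap, which was 78.0% of the first set and 54.2% of the second, and 97 had identical coordinates. Width, not level, chose the regions. Width still depends on the calls, because the extents called in separate libraries were joined into 1 region.

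The study asked how H3K9me2 in the prefrontal cortex differs in a mouse model of familial Alzheimer's disease and after inhibition of EHMT1/2. WT mice were wild type, FAD mice carried familial Alzheimer's disease alleles that the labels do not name further, and FAD-BIX mice were FAD mice treated with BIX01294, which blocks the enzymes EHMT1 and EHMT2. All mice were C57BL/6 and 5 to 6 months old, with 2 mice per group and 1 ChIP and 1 input library per mouse. The promoter that drives the FAD alleles and the dose and schedule of BIX01294 are not given in the sources used here. Each table holds 4 ChIP libraries, and the FAD libraries stand in both. The tissue was punched from brain slices and holds neurons, glia and vessels together, so a higher level cannot be told apart from more cells that carry the mark.

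H3K9me2 marks repressed chromatin. EHMT1 (GLP) and EHMT2 (G9a) act as a pair and place most of the mark outside constitutive heterochromatin, where it covers long, low and broad domains of silent genes, while the related trimethyl mark is dense at satellite repeats beside centromeres. Mouse centromeres lie at the very start of each chromosome, so the first assembled bases are those closest to pericentromeric satellite.

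Few promoters lay within wide regions. Thy1 left aside, RefSeq promoter windows (GRCm38.p6, 250 bases before to 50 after a start) overlapped wide regions at 2 genes in the first table. In the second they did so at 4, which made 5 distinct genes in all. The windows of 3 genes, cut to the part inside the wide region, are given 5′ to 3′ with each CG in capitals, as examples of these windows. The base composition of the wide regions themselves was not measured. The first is a non-coding RNA in a group of wide regions close to the start of chromosome 6, the second a predicted protein-coding gene on chromosome 14, and the third an olfactory receptor gene.
LOC115490388 (chr6:3182866-3183165, plus strand): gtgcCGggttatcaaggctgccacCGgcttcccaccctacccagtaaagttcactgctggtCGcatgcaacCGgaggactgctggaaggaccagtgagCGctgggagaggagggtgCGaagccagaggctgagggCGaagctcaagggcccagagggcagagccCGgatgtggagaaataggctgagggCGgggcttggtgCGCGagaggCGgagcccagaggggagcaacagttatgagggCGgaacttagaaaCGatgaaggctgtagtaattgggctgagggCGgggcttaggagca
Gm8104 (chr14:43057552-43057851, plus strand): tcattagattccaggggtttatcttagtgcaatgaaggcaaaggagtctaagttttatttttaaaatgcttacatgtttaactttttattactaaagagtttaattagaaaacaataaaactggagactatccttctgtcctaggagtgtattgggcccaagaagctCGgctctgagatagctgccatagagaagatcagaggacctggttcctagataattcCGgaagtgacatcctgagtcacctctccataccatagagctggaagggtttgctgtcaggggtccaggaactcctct
Olfr457 (chr6:42472127-42472262, minus strand): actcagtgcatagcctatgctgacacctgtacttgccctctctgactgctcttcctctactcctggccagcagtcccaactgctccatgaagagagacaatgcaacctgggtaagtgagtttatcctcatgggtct
The LOC115490388 window held 15 CG and 62.0% G or C in 300 bases, the Gm8104 window 2 CG and 41.3%, and the 136 bases of Olfr457 inside its wide region no CG, while its full window held 1. Of the windows not printed, Gm39701 held 4 CG and 52% G or C. The 236 bases of Gm7954 inside its wide region held 1 CG and 46.2%. Over 32851 RefSeq windows of 300 bases the median was 7 CG and 52.7% G or C, and 94.6% held at least 1 CG on either strand. Thy1, described below, is not in these counts, although wide regions of the second table covered both ends of the gene.

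Some libraries stood apart before any comparison. FAD ChIP 2 had been called in 166 of the 173 and 217 of the 249 wide regions, 96.0% and 87.1%, against 64.6% and 50.2% of all autosomal regions. It was the only library to call 72 and 54 of them, 41.6% and 21.7%, against 60.3% and 44.9% of all. The ChIP library labelled FAD 1 held reads at heart muscle genes, and its Thy1 counts in ChIP and input lay far below those of FAD 2 and both FAD-BIX mice. Whether its label is right was not tested, and both comparisons use it. Totals ran from 20445700 to 26581500 reads in ChIP and from 13923700 to 23758600 in input libraries. Because of this the values are given by library, and directions that rest on 1 library are named as such.

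Wide regions were called in several mice far more often than the rest. For FAD versus WT, 97 of 173 (56.1%) had been called in at least 2 of the 4 ChIP libraries, against 5.03% of all autosomal regions. For FAD-BIX versus FAD, 178 of 249 (71.5%) had been, against 6.52%. In all 4 libraries 20 and 26 were called, 11.6% and 10.4% of the wide regions, against 0.116% of all regions in either table. Joining widens a region that several libraries called, so these shares describe the set and do not test it. Of regions less than 50 bp under the limit, 30 of 56 (53.6%) and 38 of 70 (54.3%) were called in at least 2 libraries. Of those less than 50 bp above it, 21 of 48 (43.8%) and 42 of 68 (61.8%) were.

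**Figure D1:**
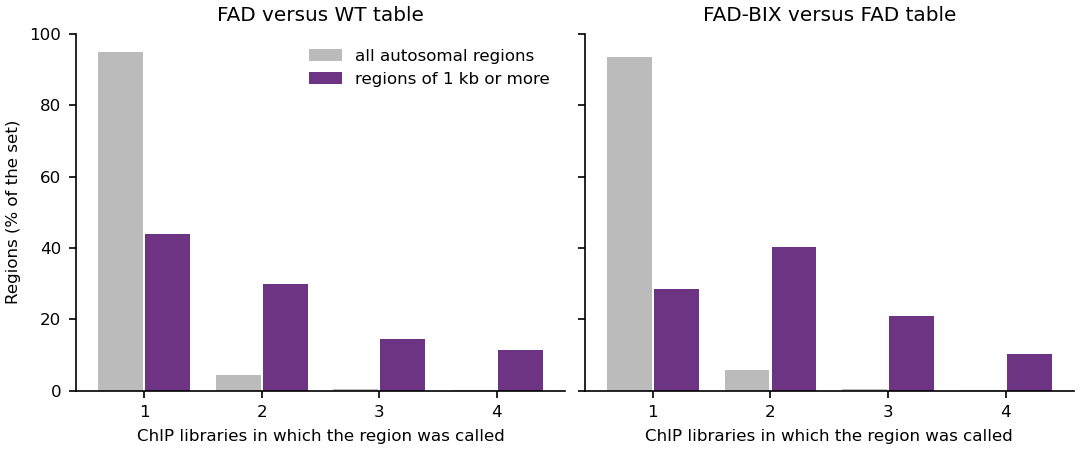
Share of regions (%, y axis) by the number of ChIP libraries in which the region was called (x axis), for all autosomal regions (grey) and regions of at least 1000 bp (purple) in each table. Of all regions 95.0% and 93.5% were called in 1 library, against 43.9% and 28.5% of the wide ones.

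Most wide regions were only a little wider than the limit, and a few were much wider. The median width was 1118 and 1117 bp, against 329 and 325 bp over all autosomal regions, and the upper quartile was 1291 and 1322 bp. At least 1500 bp was reached by 29 and 47, and at least 2000 bp by 17 and 21. Positions are on GRCm38. The widest, between genes on chromosome 7 (12012183 to 12017668, 5485 bp), held 317 and 591 reads in the WT mice and 479 and 689 in FAD ChIP, with 69, 75, 35 and 71 reads in the matching inputs. All 4 ChIP libraries were far above their inputs, and the groups overlapped once the reads were scaled. Its counterpart in the second table (12012221 to 12018244, 6023 bp) held 400 and 478 reads in the FAD-BIX mice and 508 and 708 in the FAD mice. Together the wide regions covered 232406 and 330980 bp.

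By position, most wide regions lay between genes. Their centres were between genes in 68.8% of the 173 (95% Wilson interval 61.5% to 75.2%) and in 66.7% of the 249 (60.6% to 72.2%), against 71.7% and 71.4% of all regions. Introns held 21.4% and 21.3%, against 24.6% and 24.9%. Exons held 6.36% and 8.43%, against 2.82% and 2.85%, and centres just outside the edge of an overlapped gene 2.89% and 3.21%, against 0.445% and 0.441%. UTR centres were 1 region in each table, at Lpl. Exons and gene edges had larger shares among wide than among all regions in both tables, which share many wide regions. The exon class rested on 11 and 21 regions. In the first table it includes last exons of pseudogenes, such as chromosome 12 at 87861331 and chromosome 8 at 52278672. It also includes Myh6 and Ttn, called there only in the library labelled FAD 1. The edge class rested on 5 and 8 regions, and a wider region reaches a gene outside its centre more easily. The chromosome 11 regions at 3192989 and 3195481, counted as edges, lie within Sfi1 as RefSeq places it (3131850 to 3203347). In RefSeq pseudogenes lay 7.51% and 8.03% of the centres, against 2.77% and 2.60%. The median distance to the nearest transcription start was 21200 and 19653 bp, against 39999 and 41126.5 bp. A named gene was given to 59 and 88 wide regions, of which 34 and 51 overlapped it and the others had its start closest.

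The starts of chromosomes held a large part of the ChIP reads in wide regions. Starts below 3.5 Mb, in the first assembled sequence after the centromere, were found for 23 of 173 (13.3%) and 26 of 249 (10.4%) wide regions, on 6 and 7 chromosomes, against 0.773% and 0.649% of all regions. This limit was chosen after the positions were seen. With a limit of 5 Mb the counts were 25 and 30. The 23 regions held 57.7% and 53.6% of the ChIP reads summed over wide regions in the FAD mice and 54.9% and 60.1% in the WT mice. The 26 held 39.1% and 38.1% in the FAD-BIX mice and 53.4% and 36.5% in the FAD mice. The sums of the second table also hold the Thy1 regions, which have many reads in 3 of its 4 ChIP libraries. ChIP over input was not higher there in every library. In the first table the median log2 ratio below 3.5 Mb was 0.91 and 1.14 in the WT mice, against 1.27 and 1.12 in other wide regions. In the FAD mice it was 2.05 and 2.16, against 1.69 and 2.67. In the second table the FAD-BIX mice had 1.39 and 2.16, against 1.40 and 1.90.

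Among these, chromosome 4 had the largest group. Joining wide regions of 1 chromosome at gaps of up to 100 kb gave 13 groups with 40 regions in the first table and 22 groups with 59 in the second. The chromosome 4 group (3055354 to 3225678) had 8 regions, with the vomeronasal receptor genes Vmn1r2 and Vmn1r3 as the closest named starts. Vomeronasal receptors detect pheromones in sensory neurons of the nose and are silent in cortex. The group held 1880 and 3050 reads in the WT mice and 3340 and 3243 in FAD ChIP, and 899, 889, 409 and 495 in the inputs. That is a ChIP over input log2 ratio of 1.02 and 1.16 in the WT mice and 2.23 and 2.25 in the FAD mice. Over the 8 regions of the second table (3055354 to 3182231) the ratio was 1.39 and 2.26 in the FAD-BIX mice and 2.26 and 2.29 in the FAD mice, from 2667 and 2344 against 3467 and 3386 ChIP reads. FAD-BIX input 1 held 731 reads there and FAD-BIX input 2 309, so the inputs of the FAD-BIX mice differed more than their ChIP reads did. None of the 8 regions passed the test in either table.

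The group with the most reads, on chromosome 11 (3184194 to 3200049), lay within Sfi1 as RefSeq places it, which encodes a centrosomal protein that binds centrin. The deposited annotation leaves part of the group outside the gene. The 5 regions of the group held 6268 and 9558 reads in the WT mice and 7495 and 9129 in the FAD mice. In the second table they held 6749 and 6958 in the FAD-BIX mice. The inputs were high as well, with 4195 and 3595 reads in the WT mice, 2149 and 2821 in the FAD mice and 3034 and 2235 in the FAD-BIX mice. ChIP over input was therefore modest, at a log2 ratio of 0.54 and 0.79 in the WT mice, 1.01 and 1.23 in the FAD mice and 0.68 and 0.98 in the FAD-BIX mice. In 9 and 14 wide regions the mean input level per kb was over 5 times the wide median, and these 9 and 14 held 47.4% and 54.1% of all ChIP reads summed over wide regions. Besides the Sfi1 regions they include one closest to Tcte2 and, in the second table, both Thy1 regions. The number of copies of these sequences in the mice was not tested.

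Smaller groups lay at the starts of chromosomes 6, 16 and 18. On chromosome 6 (3132834 to 3142009) 3 regions held 341 and 411 reads in the WT mice and 432 and 615 in FAD ChIP, against 63, 57, 30 and 35 in the inputs. Their log2 ratios, 2.37 and 2.21 in the WT mice and 3.01 and 3.63 in the FAD mice, were the highest in all 4 libraries among the 6 groups of at least 3 regions. The chromosome 18 group (3112773 to 3120621), closest to the vomeronasal receptor gene Vmn1r238, had ratios of 2.37 and 1.69 in the WT mice and 2.47 and 2.95 in the FAD mice. The 3 regions on chromosome 16 (3233432 to 3241326) had 0.69 and 1.07 in the WT mice and 2.03 and 1.74 in the FAD mice. In all 3 groups both FAD libraries lay above both WT libraries in ChIP over input, which also held for 52.6% of single wide regions and 30.5% of all regions. The groups on chromosomes 6 and 16 were chosen after their values were seen, and none of their regions passed the test on ChIP counts.

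A core of 14 wide regions was called in all 6 ChIP libraries, and 11 of these started below 3.5 Mb. They are 3 regions of the Sfi1 group, 4 of the chromosome 4 group, 3 closest to Vmn1r238, 1 on chromosome 6 (3132834 to 3135206), 1 closest to Vmn2r125, the widest region on chromosome 7, and 1 in the last intron of Qpct. Apart from Qpct, log2 folds ran from -0.41 to 0.17 for FAD over WT, and at all 14 from -0.23 to 0.29 for FAD-BIX over FAD. Closest to Vmn1r2 (3174672 to 3179447, 4775 bp) there were 263 and 449 reads in the WT mice and 424 and 462 in the FAD mice, while the matched region of the other comparison had 338 and 352 in the FAD-BIX mice. Closest to Vmn1r238 (3116696 to 3120621, 3925 bp) there were 340 and 548 reads in the WT mice, 510 and 713 in the FAD mice and 465 and 435 in the FAD-BIX mice. In RPM, reads scaled to the library total, WT ChIP 2 and FAD ChIP 1 were nearly equal at both, with 16.9 and 17.0 at Vmn1r2 and 20.7 and 20.5 at Vmn1r238. The log2 folds were -0.03 and 0.07 for FAD over WT, and 0.02 and -0.01 for FAD-BIX over FAD.

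**Figure D2:**
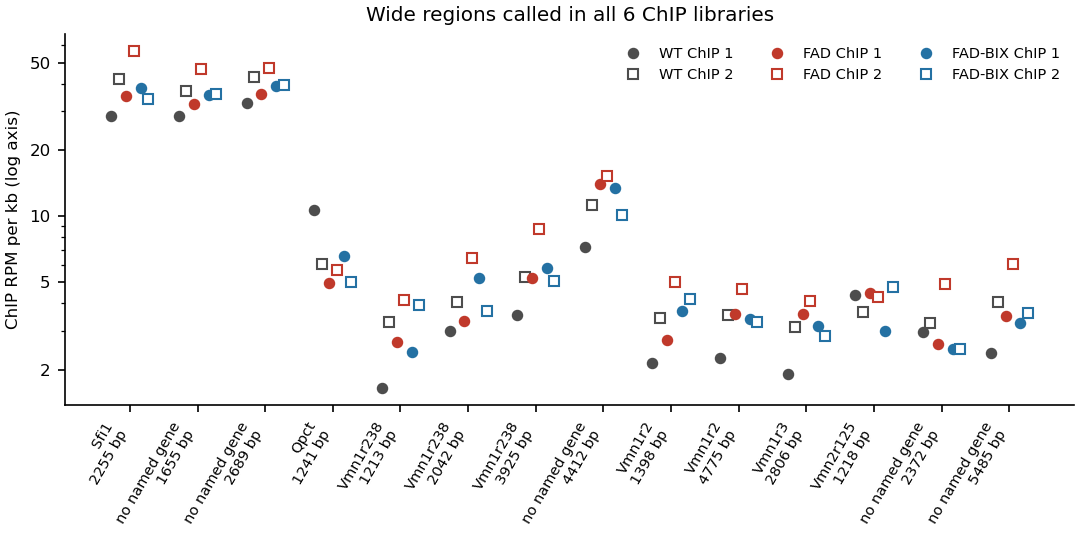
ChIP RPM per kb on a log axis (y) at the 14 wide regions called in every ChIP library (x, by gene given and width in the first table). Circles are mouse 1 and open squares mouse 2 of each group, and FAD-BIX values come from the matched region of the second table. The 3 Sfi1 group regions lie highest, and at Qpct WT ChIP 1 lies highest.

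Qpct, glutaminyl-peptide cyclotransferase, which forms pyroglutamate at peptide ends including amyloid beta, was the exception in that core. Its last intron (chromosome 17, 79087305 to 79088546) held 323 and 198 reads in the WT mice and 152 and 145 in the FAD mice, with 2, 8, 8 and 18 in the inputs. Both WT libraries lay above both FAD libraries. This was the 1 wide region of 173 (0.578%) whose RPM were lower in the FAD mice with no overlap, against 6.95% of all regions. The RPM were 13.2 and 7.49 in the WT mice and 6.14 and 7.02 in the FAD mice. WT ChIP 2 thus lay close to FAD ChIP 2, and WT ChIP 1 alone stood well above. The log2 fold of FAD over WT was -1.19 ± 0.51 (SE), and it did not pass in edgeR's quasi-likelihood test (unadjusted p = 0.0399, Benjamini-Hochberg adjusted p = 0.832). In the second table (79087416 to 79088447) FAD-BIX held 138 and 113 reads and FAD 149 and 136, a log2 fold of 0.19.

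The ratio of ChIP to input was highest in the widest of 4 width classes in every library. It rose steadily over the narrower classes in some libraries but not in others. ChIP per kb in wide regions was close to that of all regions. In the first table its median RPM was 1.34 and 1.51 in the WT mice, against 1.34 and 1.41. In the FAD mice it was 1.56 and 2.87, against 1.44 and 2.96. Median input RPM per kb was lower, 0.568 against 0.715 and, in the second table, 0.518 against 0.696. The deposited RPM add 1 to each count, which weighs most where reads are few. In regions of at least 1000 bp the log2 ratio of ChIP to input had a median of 1.25 and 1.12 in the WT mice and 1.73 and 2.60 in the FAD mice in the first table, and 1.40 and 1.93 in the FAD-BIX mice and 1.73 and 2.43 in the FAD mice in the second. Under 300 bp these were 1.07 and 0.84 in the WT mice, 1.08 and 2.12 in the FAD mice and, in the second table, 1.20 and 1.34 in the FAD-BIX mice. A ratio above 2 in all 4 ChIP libraries was found in 50 of 173 (28.9%) and 105 of 249 (42.2%) wide regions, against 9.53% and 12.3% of all regions. A ratio above 1 in all 4 was found in 153 and 224. Both FAD libraries had higher ratios than both WT libraries in 91 of 173 wide regions (52.6%) and lower ones in 2, against 30.5% and 7.98% of all regions. In ChIP RPM alone these counts were 63 (36.4%) and 1, against 29.8% and 6.95%. The inputs differed too, with a median RPM per kb in wide regions of 0.557 and 0.709 in the WT mice and 0.547 and 0.449 in the FAD mice. Both FAD-BIX libraries had higher ratios than both FAD libraries in 17 of 249 (6.83%) and lower ones in 68 (27.3%), against 13.5% and 20.2%. In limma on ChIP over input the median log2 fold of FAD over WT was 0.95 in wide and 0.77 in all regions, and that of FAD-BIX over FAD -0.34 and -0.32. Regions were called from these same reads, mostly in FAD ChIP 2, so the ratios describe the set without a test.

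**Figure D3:**
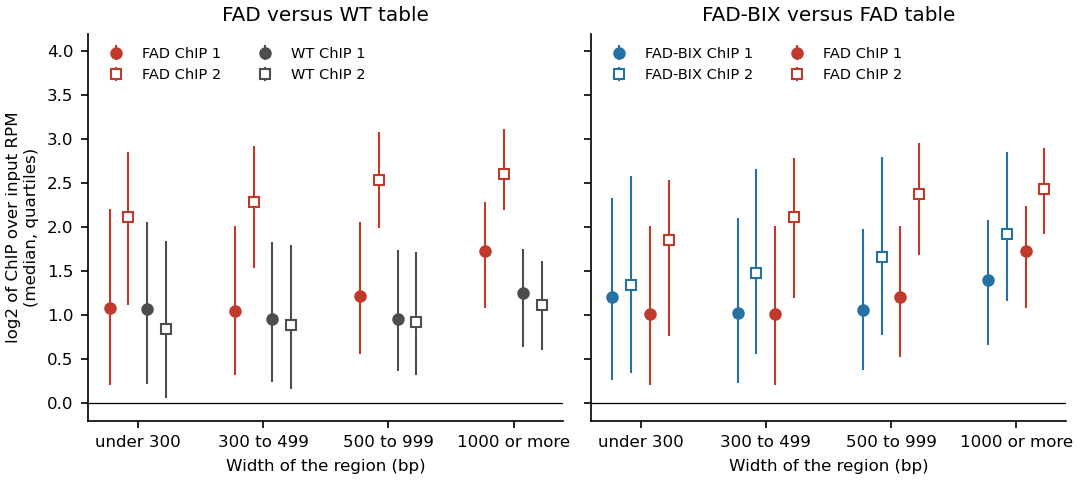
log2 of ChIP RPM over input RPM (y axis) by width of the region in bp (x axis) for each ChIP library of each table. Points are medians over regions and bars run from the lower to the upper quartile. In the widest class every library has its highest median, from 1.12 in WT ChIP 2 to 2.60 in FAD ChIP 2.

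Reads per region were higher than elsewhere, which narrowed the errors. Wide regions had a median of 38 and 45 reads in the WT mice and 45 and 66 in FAD ChIP in the first table, and of 40 and 42 in the FAD-BIX mice and 40 and 61 in the FAD mice in the second. The medians over all autosomal regions were 11 and 12 in the WT mice and 12 and 20 in the FAD mice, and 11 and 11 in the FAD-BIX mice. Inputs had medians of 6 to 14 reads in wide regions. The median SE of a log2 fold was 0.44 in both comparisons for wide regions, against 0.62 and 0.66 for all regions tested. All 173 and all 249 passed the filter on low counts.

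For FAD against WT, no wide region passed. Adjusted p ranged from 0.832 to 1.00 in edgeR's quasi-likelihood test with Benjamini-Hochberg adjustment, and 0% of all 27778 regions tested were called. Counting unadjusted p under 0.05, 3 of the 173 were higher and 2 were lower, against 0.918% and 4.97% of all regions. DESeq2 called 0, with 0 and 2 by the same count. The median log2 fold was 0.02, against 0.01 over all regions tested. Before scaling to region counts, 63 wide regions (36.4%) had both FAD libraries above both WT libraries in RPM, against 29.8% of all regions. Summed over wide regions the reads made up 0.0886% and 0.133% of the library in the FAD mice and 0.0705% and 0.0907% in the WT mice, means of 0.111% ± 0.0312 (SD, n = 2) and 0.0806% ± 0.0143. The groups overlapped (two-sided exact permutation p = 0.667, where 2 against 2 allows no p below 0.333).

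The wide region with the smallest p lay in exon 22 of Myh6, the cardiac alpha myosin heavy chain (chromosome 14, 54952892 to 54953945). The ChIP library labelled FAD 1 had 293 reads, FAD ChIP 2 27, and the WT libraries 19 and 18, with 8, 18, 12 and 16 in the inputs. FAD ChIP 1 stands alone, and the log2 fold of 2.995 ± 1.02 (SE; unadjusted p = 0.015, adjusted p = 0.832, edgeR's quasi-likelihood test) became -0.24 without it. Without FAD ChIP 2, Myh6 and Lpl passed in edgeR, at 3.95 (adjusted p = 8.95e-08) and 3.27 (8.81e-05). The 3′ untranslated region of Lpl, lipoprotein lipase (chromosome 8, 68905516 to 68906896), held 169 and 2 reads in the FAD mice and 21 and 13 in the WT mice. Exon 341 of Ttn, the giant sarcomere protein titin (chromosome 2, 76709973 to 76711072), held 65 and 35 in the FAD mice and 22 and 23 in the WT mice. These are the 3 members of the heart muscle list among wide regions, and the 3 that no library but the one labelled FAD 1 called. No wide region lay at a skeletal muscle gene of the list, nor at the listed markers of cortical neurons, oligodendrocytes, astrocytes, microglia or endothelium, so wide regions do not check the tissue. Among autosomal regions of any width the heart list had 37 and 49 and the skeletal muscle list 1 in each table. The part of other tissue in these values was not tested.

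The other higher regions were shared by both FAD mice. The last exon of Scnn1g, the gamma subunit of the epithelial sodium channel (chromosome 7, 121766700 to 121767773), held 44 and 53 reads in the FAD mice and 14 and 22 in the WT mice, with inputs of 0, 3, 10 and 14. Both FAD libraries were above both WT libraries, and the log2 fold was 1.04 ± 0.45 (unadjusted p = 0.0421, adjusted p = 0.832, edgeR's quasi-likelihood test). In the non-coding gene Gm14061 (chromosome 2, 138722619 to 138723653) there were 73 and 84 reads in the FAD mice and 24 and 36 in the WT mice, with a log2 fold of 1.01. Intron 2 of Flg2, a filaggrin-like protein of skin (chromosome 3, 93205607 to 93206615), held 52 and 80 in the FAD mice and 24 and 28 in the WT mice, a log2 fold of 0.91. In each of these 3 both WT libraries were lower. Input reads of the FAD mice were below those of the WT mice at all 3 regions, in libraries of fewer total reads. The largest drop was between genes on chromosome 14 (111824378 to 111825464), with 12 and 34 reads in the FAD mice and 54 and 31 in the WT mice, a log2 fold of -1.41 ± 0.51 (unadjusted p = 0.0207, edgeR). FAD ChIP 2 overlaps WT there. An intron of Chil3, a chitinase-like protein of macrophages, held 44 and 61 in the FAD mice and 48 and 86 in the WT mice, a log2 fold of -0.74. The groups overlapped there as well. These folds use TMM, the edgeR scaling to the bulk of the regions. It put the median log2 fold over all regions at 0.01, against 0.64 by library totals.

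**Figure D4:**
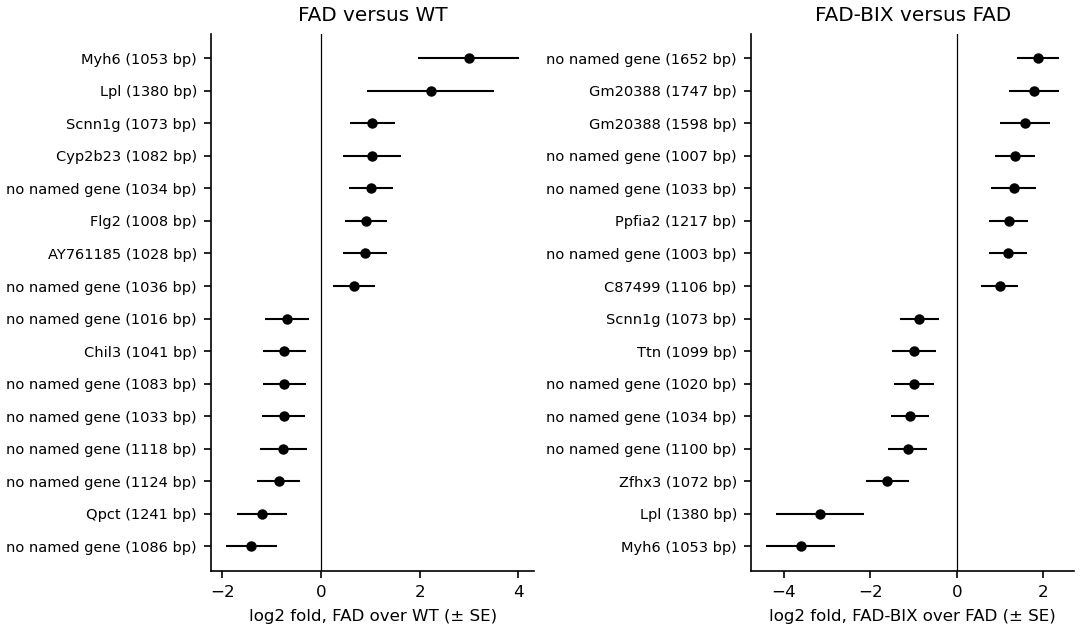
log2 fold (x axis) with its SE from edgeR for the 8 wide regions with the smallest p in each direction (y axis, gene given and width in bp), for FAD over WT and for FAD-BIX over FAD. None passed the threshold of 0.05 on adjusted p. Myh6 and Lpl lie farthest from 0, higher in the FAD mice against WT and lower in the FAD-BIX mice against FAD, and both rest on the library labelled FAD 1, which stands in both comparisons.

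For FAD-BIX against FAD, no wide region passed either. Adjusted p started at 0.897 in edgeR's quasi-likelihood test, and 0% of all 31055 regions tested were called. Counting unadjusted p under 0.05, 13 of the 249 were higher and 6 were lower, against 3.93% and 1.18% of all regions. DESeq2 called 0, with 4 and 3 by the same count. The median log2 fold was 0.02, against 0.03 over all regions tested. In RPM 16 wide regions (6.43%) had both FAD-BIX libraries above both FAD libraries, against 12.8% of all regions, and 56 (22.5%) had them below, against 19% of all regions. The summed share was 0.146% and 0.137% in the FAD-BIX mice and 0.103% and 0.208% in the FAD mice (two-sided exact permutation p = 1). The FAD-BIX mice lie between the FAD mice. Without the Thy1 regions the shares were 0.109% and 0.102% in the FAD-BIX mice and 0.103% and 0.153% in the FAD mice.

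The direction of these sums turned with the scaling. The log2 ratio of the summed shares was 0.46 for FAD over WT and -0.14 for FAD-BIX over FAD by library totals, and -0.12 and 0.25 after TMM, the edgeR scaling to the bulk of the regions. With the library totals in place of TMM, the median log2 fold over all regions was 0.64 for FAD over WT and -0.34 for FAD-BIX over FAD, and that of the wide regions 0.66 and -0.31. Under that scaling an unadjusted p under 0.05 was reached by 12 higher and 0 lower wide regions for FAD over WT, against 2.31% and 0.248% of all regions, and 3 were higher and 7 lower for FAD-BIX over FAD, against 0.441% and 1.47%. The threshold of 0.05 on adjusted p was passed by 1 wide region for FAD over WT (Myh6; 0.0072% of all regions) and 2 for FAD-BIX over FAD (Myh6 and Lpl; 0.0129%), in edgeR's quasi-likelihood test. A change shared by the whole genome cannot be seen under either scaling.

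The higher regions under BIX01294 with the smallest p came as pairs and rested on 1 mouse. On chromosome 1 (170944033 to 170945685) FAD-BIX held 44 and 138 reads and FAD 26 and 41, with inputs of 11, 6, 4 and 4, a log2 fold of 1.87 ± 0.49 (unadjusted p = 0.00107, adjusted p = 0.897, edgeR's quasi-likelihood test). Its neighbour (170942204 to 170943237) held 28 and 85 in the FAD-BIX mice and 34 and 24 in the FAD mice. The predicted gene Gm39701 starts within the first of these. On chromosome 8, in intron 1 of the predicted gene Gm20388, 123426207 to 123427954 held 29 and 138 reads in the FAD-BIX mice and 38 and 23 in the FAD mice, and 123428729 to 123430327 held 24 and 134 in the FAD-BIX mice and 40 and 27 in the FAD mice. FAD-BIX ChIP 2 was the high library at all 4 regions and the only one in which they were called, while FAD-BIX ChIP 1 held 24 to 44 reads. FAD-BIX input 2 held 2 to 9. Repeats are not annotated in the files, and whether reads at these 4 regions stem from repeated sequence with copies elsewhere was not tested. Without FAD-BIX ChIP 2 the second Gm20388 region turned to -0.13. Without the library labelled FAD 1 both Gm20388 regions passed in edgeR (2.49 and 2.18, adjusted p = 0.00584 and 0.0428), and without FAD-BIX ChIP 1 the first of them and the wider chromosome 1 region did (2.44 and 2.42, adjusted p = 0.0373 and 0.0387).

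Other higher regions were shared by both FAD-BIX mice. An intron of Ppfia2, liprin alpha 2 of the presynaptic active zone (chromosome 10, 106758028 to 106759245), held 40 and 63 reads in the FAD-BIX mice and 29 and 30 in the FAD mice, a log2 fold of 1.20 ± 0.45 (unadjusted p = 0.0148, edgeR). Between genes on chromosome 1 (35364547 to 35365554) there were 38 and 39 in the FAD-BIX mice and 16 and 25 in the FAD mice, a log2 fold of 1.34. On chromosome 3 (8223767 to 8224770) there were 42 and 41 against 21 and 28, a log2 fold of 1.18. In these 3 both FAD-BIX libraries were above both FAD libraries.

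Lower regions under BIX01294 fell into those set by 1 FAD mouse and those shared by both. Myh6 held 8 and 15 reads in the FAD-BIX mice against 293 and 27 in the FAD mice (log2 fold -3.61 ± 0.79, unadjusted p = 0.000192, edgeR), and Lpl 5 and 12 against 169 and 2 (-3.16 ± 1.02). Both follow the library labelled FAD 1, and at Lpl the log2 fold turned to 2.63 without it. Myh6 passed in edgeR without FAD ChIP 2, FAD-BIX ChIP 1 or FAD-BIX ChIP 2 (-4.65, -3.30 and -4.15), and Lpl without FAD ChIP 2 or FAD-BIX ChIP 2 (-4.29 and -3.94). Intron 4 of Zfhx3, a homeobox transcription factor of neurons and muscle (chromosome 8, 108529434 to 108530506), held 9 and 14 in the FAD-BIX mice and 38 and 57 in the FAD mice, with inputs of 5, 3, 4 and 3. Both FAD mice were higher there, the log2 fold was -1.60 ± 0.49 and the unadjusted p 0.00377 (adjusted p = 0.897, edgeR's quasi-likelihood test). The Gm14061 region on chromosome 2 held 31 and 25 in the FAD-BIX mice against 73 and 84 in the FAD mice, and Scnn1g 16 and 24 against 44 and 53, log2 folds of -1.08 and -0.86. Both regions had been among the higher ones for FAD over WT. The comparisons share the FAD libraries, so a high FAD count raises the first fold and lowers the second.

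**Figure D5:**
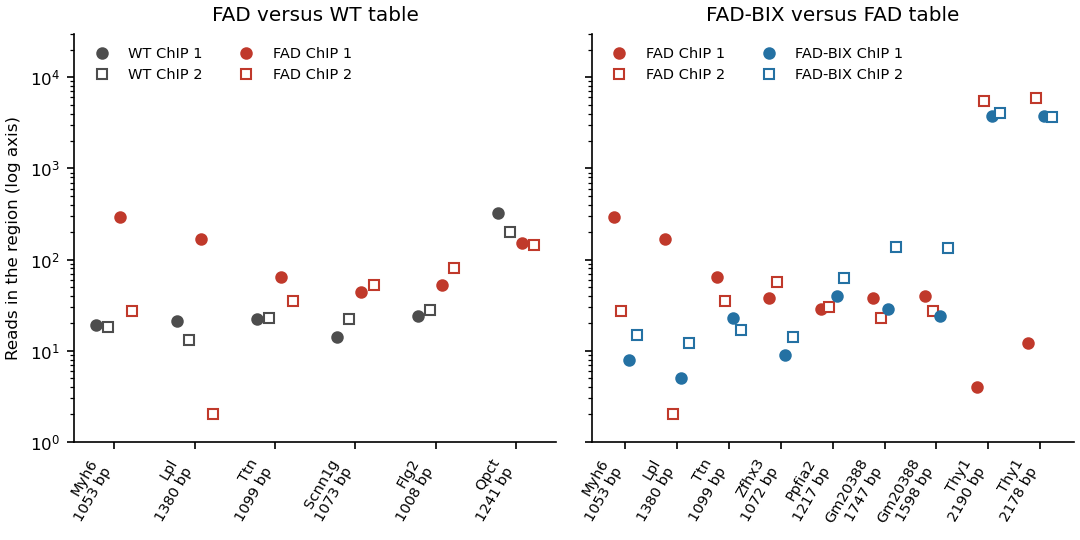
Reads (log axis, y) of each ChIP library in selected wide regions (x, gene and width in bp) of each table. Circles are mouse 1 and open squares mouse 2. At Myh6 and Lpl the library labelled FAD 1 stands alone, at both Gm20388 regions FAD-BIX ChIP 2 does, and at Thy1 the library labelled FAD 1 lies far below the other 3.

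Across all 6 ChIP libraries FAD ChIP 2 led the wide regions. At the 97 regions with identical coordinates in both tables the median RPM per kb was 1.15 and 1.27 in the WT mice, 1.36 and 2.80 in the FAD mice and 1.38 and 1.30 in the FAD-BIX mice. FAD ChIP 2 was the highest of the 6 in 91 of them, and the other 5 libraries lay close together. Regions with identical bounds were all called in a FAD library, 94 in FAD ChIP 2, but 17 in a WT and 29 in a FAD-BIX library, so these levels are a description of regions chosen through FAD calls. In the 20 wide regions called in all 4 libraries of the first table, the median RPM per kb was 2.98 and 3.61 in the WT mice. It was 3.58 and 4.95 in the FAD mice. Every library called these regions, but their joined width can still come from FAD ChIP 2. The RPM of both FAD mice were higher without overlap in 5 of these 20 and lower in 1, against 29.8% and 6.95% of all regions. In the 26 of the second table the median RPM per kb was 3.61 and 3.81 in the FAD-BIX mice and 3.68 and 5.27 in the FAD mice. Of these, 0 were higher and 6 lower without overlap, against 12.8% and 19% of all regions. The folds under TMM ran from -1.19 to 0.39 in the 20 and from -0.32 to 0.73 in the 26.

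Thy1, a neuronal surface glycoprotein whose promoter is a common driver of neuronal transgenes, had 2 wide regions in the second table and none in the first. They lay at either end of the gene, which RefSeq places at 44043384 to 44048579 on chromosome 9. At the first (44042877 to 44045067) the FAD-BIX mice had 3757 and 4100 ChIP reads and FAD ChIP 2 had 5503, but the library labelled FAD 1 had 4. Inputs were 2690, 1314, 2697 and 31 in the same order. The second (44047581 to 44049759) held 3758, 3632, 5927 and 12, and inputs of 2759, 1252, 2450 and 17. The mouse labelled FAD 1 was the one apart, with few reads in both ChIP and input. Among the others, ChIP and input did not move in step. Over both regions the log2 ratio of ChIP to input was -0.01 and 0.93 in the FAD-BIX mice. It was 0.69 in FAD ChIP 2 and -2.32 in the library labelled FAD 1. The log2 folds of 1.20 and 1.00 did not pass, and they depended on which FAD library was left out. Without FAD ChIP 2 they became 9.90 and 8.26, past the threshold in edgeR. Without the library labelled FAD 1 they became 0.16 and -0.034 with TMM, which did not pass. With library totals they were then -0.52 and -0.71, and the second passed in edgeR (adjusted p = 0.0049).

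Wide regions at genes of neuronal adhesion and transmission were counted from the lists. The synapse list had 1 wide region in the first table, in Nlgn1 (neuroligin 1, a postsynaptic adhesion protein), and 6 in the second, in Nlgn1, Nrxn3, Nrg3, Cntnap2, Cntnap5c and Cdh12, out of 584 and 790 regions of all widths (0.171% and 0.759%, against 0.517% and 0.575% of all autosomal regions that were wide). GABA receptor genes had 1 of 85 and 1 of 120 (1.18% and 0.833%). At Nrxn3, a presynaptic partner of neuroligins (chromosome 12, 90137411 to 90138667), FAD-BIX held 59 and 51 reads and FAD 37 and 48. In RPM the second mice of both groups were equal at 2.36, and the log2 fold of 0.79 did not pass. At Nlgn1 (chromosome 3, 25848947 to 25849999) there were 39 and 28 reads in the WT mice, 34 and 60 in the FAD mice and 34 and 34 in the FAD-BIX mice, which overlap. The glutamate receptor list had 0 wide regions of 191 in the first table and 1 of 265 (0.377%) in the second. That region lay in Grik2, a kainate receptor subunit, where FAD-BIX held 38 and 15 reads and FAD 34 and 46. At Gabrb1, a GABA-A receptor subunit, there were 45 and 40 reads in the WT mice, 33 and 64 in the FAD mice and 20 and 28 in the FAD-BIX mice. No wide region of these lists had an unadjusted p under 0.05 in edgeR. Olfactory and vomeronasal receptors were closest to or overlapped by 10 wide regions in each table. These were 1.37% and 1.11% of 732 and 898 regions of all widths, against 0.517% and 0.575% of all autosomal regions. Those closest to Vmn1r2, Vmn1r3 and Vmn1r238 are neighbours in the groups of chromosomes 4 and 18. Of the 10, 1 overlapped the gene, Olfr457. None of the 10 had an unadjusted p under 0.05 in either comparison, and their median log2 folds were -0.07 and 0.02. Zinc-finger genes of the lists had no wide region among 194 and 236 regions of all widths. H3K9 methylation genes had none among 3 and 6, and Alzheimer disease genes none among 2 and 4. Housekeeping genes had no region of any width. At the wide share of all autosomal regions, lists of these sizes cannot show a lack of wide regions.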

How the data were processed

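Per the labels' protocols, cortex tissue was fixed for 12 min with 1% formaldehyde and sheared. Reads were 50 bp single-end or 150 bp paired-end. The labels describe separate mice. BWA 0.7.12, MACS2 2.1.0, Trimmomatic, FastQC and build mm9 are named in the submitters' processing notes. Of genes matched by symbol, 99.8% in each table overlapped the same gene in RefSeq GRCm38.p6, so coordinates are given as GRCm38. The sources used here do not say whether positions count from 0 or 1.

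Per the file headers, the authors deposited read counts and RPM per library and region, the fold enrichment (a ratio of ChIP RPM to input RPM), marks of the libraries in which a region was called, and their own log2 fold changes with p-values and q-values, which were not used. The deposited RPM equalled the count plus 1 over the library total, and that total was taken as depth. Called regions were joined across libraries, so presence in a table depends on the reads compared.

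ChIP counts of each whole table were tested with edgeR 4.0.16 (quasi-likelihood, TMM, default filter on low counts, Benjamini-Hochberg, threshold 0.05), and only wide autosomal regions are given. Intervals and counts cover counting error only. SE is the absolute log2 fold over the square root of F. Alternatives were DESeq2 1.42.0, limma 3.58.1 on log2 ChIP over input, other scalings and filters, a replicate block, libraries left out, and other widths, gaps and overlaps. Steps were tested on simulated data. Members and 16 gene lists were chosen with earlier results of these data known. Named regions are 8 per direction by smallest p, the 10 widest, the 8 with the highest lowest ratio, the 5 with most reads, up to 15 called in all libraries, list members and the largest group, of which a selection is printed. Regions outside that rule (the groups of chromosomes 6 and 16, Gabrb1 and the promoter windows) were chosen after their values were seen. Repeat content and reads with several matches in the genome were not analysed here.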

Additional observations from a re-analysis of the deposited data

How the results depend on the processing

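The count of 0 wide regions past the 0.05 threshold held for both comparisons with DESeq2, DESeq2 size factors, autosomes only, limma on ChIP over input, and widths from 1500 or 2000 bp. Library totals gave 1 for FAD over WT and 2 for FAD-BIX over FAD, and no filter on low counts 0 and 4, the latter being Myh6, Lpl and both Thy1 regions. Leaving out each library gave 0 to 2 with TMM or library totals for FAD over WT, and 2 to 4 with TMM and 0 to 4 with library totals for FAD-BIX over FAD. Without FAD ChIP 2 these were Myh6 and Lpl in the first comparison, and Myh6, Lpl and both Thy1 regions in the second. Without the library labelled FAD 1 they were a region on chromosome 1 (190300551 to 190302851, log2 fold -2.12) in the first, and both Gm20388 regions with one closest to Apba2 in the second, all with TMM. With library totals there were 0 in the first and 1 in the second, Thy1 at 44047581 (-0.71). A group left with 1 library is assumed to vary like the other.

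The log2 ratio of summed shares was 0.46 for FAD over WT. It turned to -0.12 with TMM and -0.15 with DESeq2 size factors, and ran from 0.14 to 0.72 with a library left out. For FAD-BIX over FAD it was -0.14, turned to 0.25 and 0.27, and ran from -0.56 to 0.46 with a library left out, 0.46 being without FAD ChIP 2. With a library left out, Myh6 ran from -0.24 to 3.95 and Lpl from -3.79 to 3.27 for FAD over WT, and Lpl from -4.29 to 2.63 the second Gm20388 region from -0.13 to 2.28 and Thy1 at 44047581 from -0.034 to 8.26 (to 8.49 with library totals) for FAD-BIX over FAD. Library totals are the scaling of the sum itself. TMM for the sum, leaving out Thy1 (-0.28), and libraries left out with library totals were chosen after seeing the data.

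Among the 8 regions per direction with the smallest p and the Thy1 regions, folds that turned were, for FAD over WT, Myh6 (-0.24) and Lpl (-3.79) without the library labelled FAD 1, Lpl (-0.87), chromosome 4 at 29779313 (1.42) and chromosome 6 at 49477172 (0.30) in limma, and the last under library totals (0.021). For FAD-BIX over FAD they were the second Gm20388 region in limma (-0.12) and without FAD-BIX ChIP 2 (-0.13), and Lpl (2.63) and Thy1 at 44047581 (-0.034) without the library labelled FAD 1. With library totals as well, Thy1 turned to -0.52 at 44042877 and -0.71 at 44047581. The cause was not tested. Widths from 1500 and 2000 bp gave median log2 ratios of 1.43 and 1.63 in WT ChIP 1 and 2.31 and 2.31 in FAD-BIX ChIP 2, and from 2000 bp 1.92 in WT ChIP 2. They put 75.9% and 94.1% of the first table's wide regions between genes, and 76.2% of the second's from 2000 bp. Overlapped genes only left 34 and 51 regions with a gene, and a gap of 1 Mb gave 21 and 42 groups.

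Replicate numbers do not pair the mice: the correlation of same-numbered deviations in wide regions was 0.11 and -0.11. The replicate block gave 0 calls in both comparisons, and an unadjusted p under 0.05 for 1 higher and 1 lower region in the first and 15 higher and 4 lower in the second.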
